A study of Mus musculus with 20 samples.

Results

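The enzymes that write and remove DNA methylation were followed across 5 antibodies and 2 neuron types in CUT&RUN peak lists from mouse brain. The set holds 7 genes of the 21627 protein-coding RefSeq genes measured: the dioxygenases Tet1, Tet2 and Tet3, the methyltransferases Dnmt1, Dnmt3a and Dnmt3b, and the glycosylase Tdg. They were taken as a list by name, and every one was found in the annotation. For each gene, peaks were read in the gene body with 5 kb on each side and within 2 kb of both gene ends. CUT&RUN cuts out and sequences the DNA beneath an antibody in intact nuclei. Whole brains of mice aged 8 weeks and carrying the genotype Sun1 f/f | Emx1Cre (+) gave all 20 libraries, through nuclei that were sorted by flow cytometry into excitatory and inhibitory neurons. Each of the 10 groups, 5 antibodies by 2 neuron types, held 2 libraries. The floxed Sun1 allele and the Cre are thus shared by both neuron types. Cre was driven by Emx1, a gene of the dorsal forebrain, and the sources used here do not state the sorting gate. Whether the 2 libraries of a group are from different animals is not labelled, and the p-values then reflect only how these libraries spread.

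DNMT3A and DNMT3B place methyl groups on unmethylated cytosine, and DNMT1 copies the pattern to the new strand after replication. TET enzymes oxidize 5-methylcytosine to 5-hydroxymethylcytosine and further, and TDG cuts out the most oxidized forms so that base excision repair can restore cytosine. Neurons no longer divide, yet they are known for abundant 5-hydroxymethylcytosine and for methylation outside CG dinucleotides that DNMT3A lays down after birth. EGR1 is a zinc-finger transcription factor induced by neuronal activity and is known to bind TET1. Of the histone marks, H3K4me3 marks promoters, H3K27ac marks promoters and enhancers in use, H3K4me1 marks enhancers and the flanks of promoters, and H3K27me3 marks chromatin that Polycomb represses.

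Only peaks, without read counts, are held in the lists, and sequencing depth is therefore unknown. A library held between 49899 (an EGR1 list) and 321846 (an H3K4me1 list) peaks. The EGR1 lists held 93858 and 98534 peaks in the excitatory against 49899 and 62412 in the inhibitory libraries. They covered 48.8 and 50.2 Mb against 22.6 and 29.7 Mb. Raw EGR1 coverage, and EGR1 peaks called in the excitatory libraries alone, are to be read beside these totals. The H3K4me1 lists covered 218 and 257 Mb in the excitatory against 188 and 163 Mb in the inhibitory libraries. For H3K27me3 the totals were 182 and 216 Mb against 277 and 243 Mb. Raw coverage by these marks is to be read beside them as well. The covered totals of H3K4me3 and H3K27ac overlapped between the neuron types. The share of peaks with q below 0.05 was 90.7% to 98.1% for EGR1 and 23.9% to 47.6% for H3K4me3, but at most 0.00990% for H3K27me3 and 9.61% for H3K4me1. For H3K27ac this share was 2.57% and 4.94% in the excitatory against 31.8% and 35.1% in the inhibitory libraries. The cell type markers gave a mixed check of the labels. EGR1 coverage within 2 kb of starts, summed over 4 excitatory markers, was 100 and 75.1 in the excitatory against 27 and 29.7 in the inhibitory libraries. Over 6 inhibitory markers the EGR1 sum was 11.5 and 0 against 42.0 and 69.3. H3K27ac went against the labels at the starts of those 6 inhibitory markers, with sums of 27.5 and 16.9 in the excitatory libraries and 0 in both inhibitory ones. The H3K4me1 sum over their gene bodies also went against the labels, with 95.9 and 132 against 65.0 and 73.7. Of these markers, Gad1, Gad2 and Slc32a1 went against the labels without overlap, Dlx1 went with them, and Dlx2 and Lhx6 overlapped. At their starts the H3K4me1 sum went with the labels, with 138 and 196 against 271 and 303. "Excitatory" and "inhibitory" below therefore mean the libraries so labelled.

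In the gene-body and gene-end windows no enzyme gene differed between the neuron types at an adjusted p below 0.05. The measure was the percent of the window covered by peaks, quantile-normalized over the 4 libraries of an antibody and fitted with limma over all genes, with Benjamini-Hochberg adjustment. For H3K4me1, 0 of 7 gene bodies passed, where 4.06% of all 18013 gene bodies did, and for H3K4me3 0 of 6 pairs of gene ends, against 3.02% of 15681. The other antibodies gave 0 of 7 (H3K27ac), 0 of 6 (H3K27me3) and 0 of 4 (EGR1), where 0% of all genes passed. Without adjustment, 0, 0, 1, 1 and 2 members had p below 0.05 in that order of antibodies, against 25.9%, 17.5%, 18.3%, 28.9% and 14.7% of all genes tested. The adjusted p closest to the threshold was that of H3K27me3 over Tet2 (0.0555). It rests on weak peaks: with only peaks of a -log10 p of at least 3, 0 of 7 enzyme genes had H3K27me3 in either inhibitory library.

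Raw coverage separated the neuron types at some genes, in both directions. H3K4me1 over gene bodies was higher in both excitatory than in both inhibitory libraries at 3 of 7 enzymes (39.3% of all genes tested) and the reverse at 1 of 7 (15.3%). For H3K27ac over gene bodies these counts were 1 of 7 (24.9%) and 3 of 7 (26.2%), and for H3K27me3 0 of 6 (14.2%) and 4 of 6 (48.7%). At gene ends they were 0 of 6 (25.6%) and 3 of 6 (20.3%) for H3K4me3, and 2 of 4 (47.4%) and 0 of 4 (6.05%) for EGR1. Members at 0% in both excitatory libraries, Tet2, Tet3 and Dnmt3a for H3K27me3 and Dnmt3a for H3K4me3 at gene ends, entered through the inhibitory libraries alone, so the filter, which kept genes covered in 2 or more libraries, fixed their place in these counts. Coverage cannot tell a mark present in more nuclei apart from a stronger mark in each nucleus. The levels of single genes are given in the order excitatory replicates 1 and 2 against inhibitory replicates 1 and 2.

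A gene's outermost ends are not always where transcription starts. For Tet1, Tet2, Dnmt3b and Tdg the annotated 5′ gene end lies within 0.746 kb of a start in the RefSeq promoter table, but that of Tet3 lies 15.5 kb from its nearest listed start, that of Dnmt3a 5.42 kb, and Dnmt1 has listed starts 6.91 kb apart. H3K4me3 and EGR1 over the gene ends of Dnmt1 were 0% in every library, and both were called at its downstream start. The same fit was therefore also run on windows of 2 kb on each side of listed starts, a choice made after the gene ends had been seen to miss them. The 7 genes have 9 such start sites out of 18572, since Dnmt1 and Dnmt3a each have a pair.

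**Figure D1:**
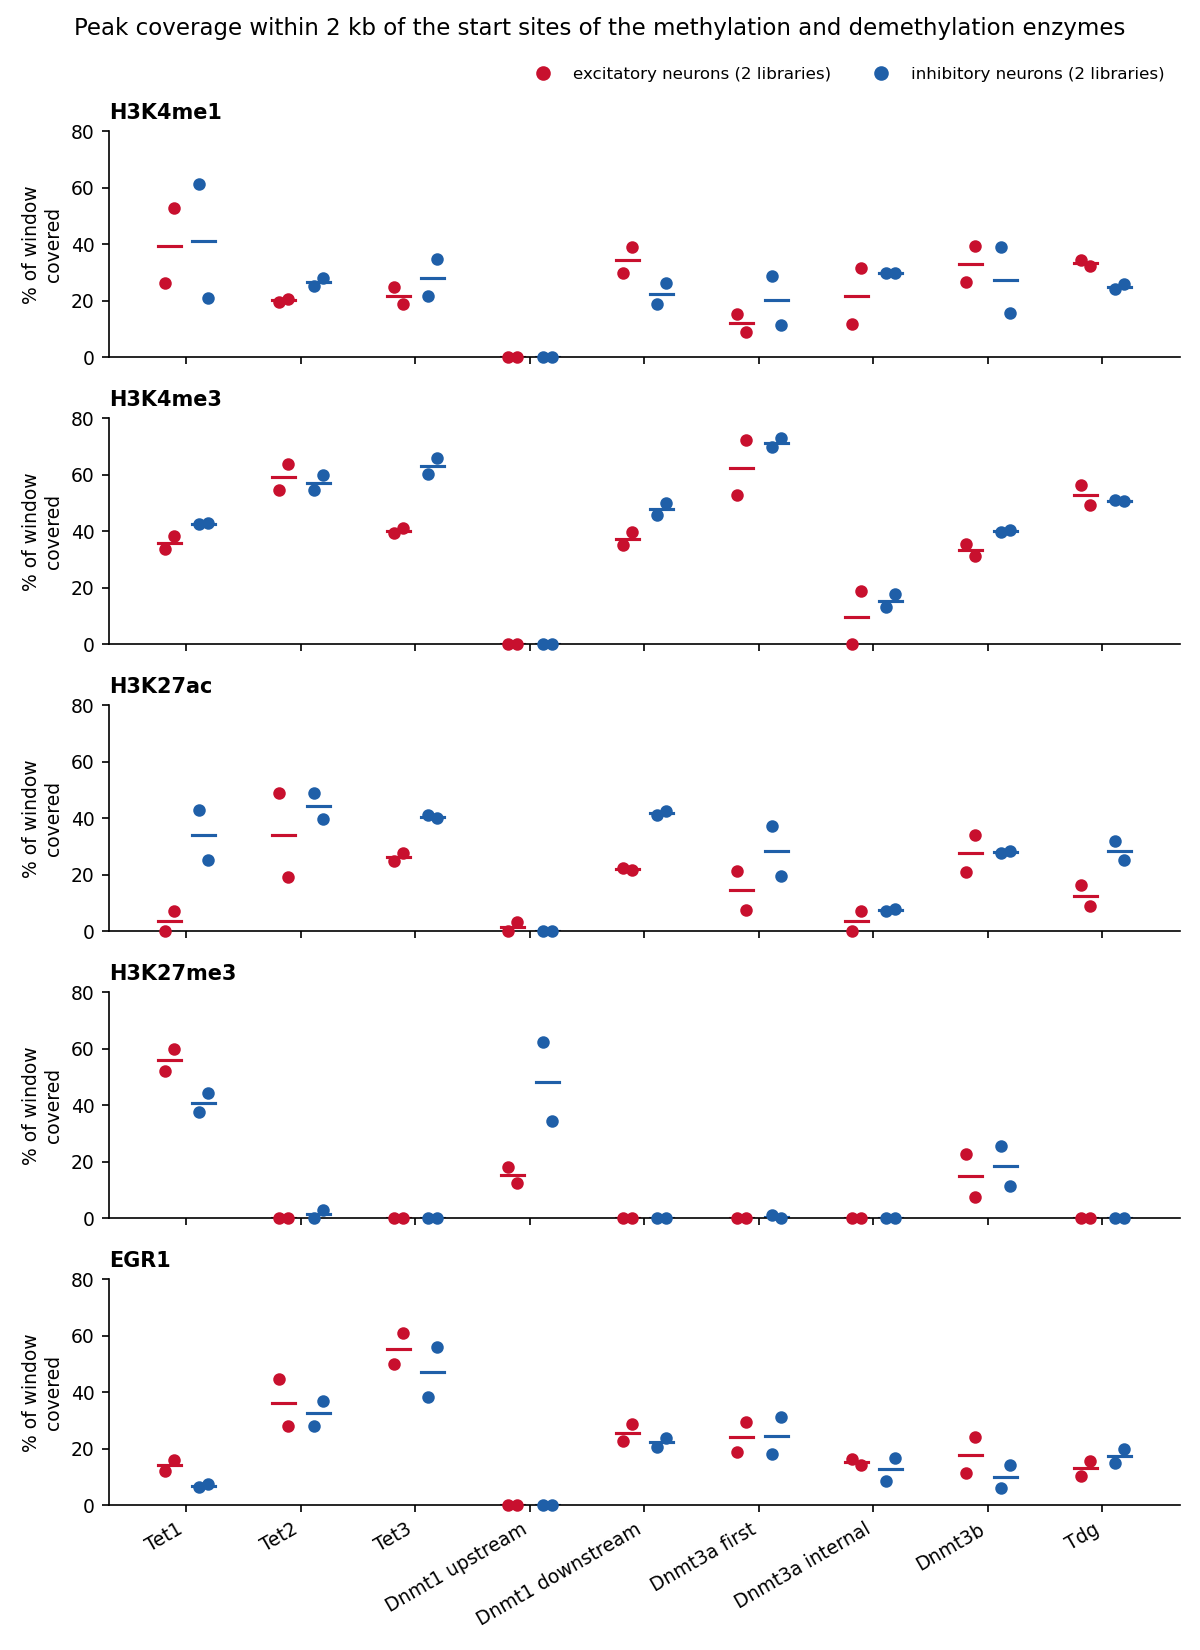
Percent of the window within 2 kb of each start site (horizontal axis) that was covered by called peaks (vertical axis, 1 panel per antibody). Points are libraries, red excitatory and blue inhibitory, and bars are means of 2. H3K4me3 and EGR1 peaks lie at 8 of the 9 sites in at least 3 libraries, while H3K27me3 reaches above 5% only at Tet1, the upstream start of Dnmt1 and Dnmt3b.

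Most start sites of the enzymes carried H3K4me3, H3K27ac and EGR1, and some carried H3K27me3, Dnmt3b among both. H3K4me3 lay at 7 of the 9 sites in all 4 libraries, where it did so at 59.7% of all start sites, and EGR1 at 8 of 9, against 53.7%. For H3K27ac this was 6 of 9, against 46.6%, and for H3K4me1 8 of 9, against 55.1%. H3K4me3, H3K27ac and EGR1 were all present in all their libraries at 6 of 9 sites, against 43.8% of all sites. H3K27me3 was absent from every library at the starts of Tet3 and Tdg, at the downstream start of Dnmt1 and at the internal start of Dnmt3a, which is 4 of 9 sites against 43.4% of all. It was called in all 4 libraries at 3 of 9 sites, against 21.9% of all. None of the 9 sites had an H3K27me3 peak in any library when only peaks with a -log10 p of at least 3 were counted, so each statement on this mark rests on weak peaks. Of H3K4me1, the only such peak at an enzyme start was in 1 excitatory library at Tet1 (26.2%).

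At the start sites tested, both inhibitory libraries were above both excitatory ones at 4 of 8 enzyme sites for H3K4me3 (20.7% of all sites tested), 5 of 8 for H3K27ac (41.1%), 1 of 8 for H3K4me1 (18.7%) and 1 of 3 for H3K27me3 (39.4%). The reverse held at 2 of 8 sites for H3K4me1 (26.2%), 1 of 3 for H3K27me3 (16.3%) and 1 of 8 for EGR1 (44.5%). H3K4me3 and H3K27ac had no site of that kind among the enzymes, against 25.9% and 11.8% of all sites, and EGR1 had none that was higher in the inhibitory libraries, against 6.41%.

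The order of H3K4me3 levels at the start sites ran from the first start of Dnmt3a, with a mean of 67.0% over the 4 libraries, through Tet2 (58.3%), Tdg (51.8%), Tet3 (51.6%), the downstream start of Dnmt1 (42.6%), Tet1 (39.3%) and Dnmt3b (36.7%) to the internal start of Dnmt3a (12.4%) and the upstream start of Dnmt1 (0%). Each neighbouring pair down to Dnmt3b overlapped in its library values. The Dnmt3a first start stood above 97.7% of all start sites. For EGR1 the order was led by Tet3 (51.4%, above 99.9% of all sites) and Tet2 (34.4%, above 95.8%), with library ranges of 38.3% to 61.0% and 28.0% to 44.7% that overlap. The middle of the EGR1 order was held by Dnmt3a (24.4%), Dnmt1 downstream (24.0%) and Tdg (15.2%). Below them came Dnmt3b and the internal start of Dnmt3a (both 14.0%) and Tet1 (10.6%). The median start site was covered to 30.8% by H3K4me3 and to 13.4% by EGR1. Tet3 and Tet2 thus carried some of the widest EGR1 coverage measured at any start.

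Tet1 encodes a dioxygenase with a CXXC domain that binds unmethylated CpG and is best known from embryonic stem cells. It lies at chr10:62804570-62887469 (mm10, minus strand). Over the gene body H3K4me1 covered 13.8% and 15.3% in the excitatory against 19.3% and 15% in the inhibitory libraries, and H3K27ac 3.77% and 9.62% against 7.41% and 9.94%. H3K27me3 covered 4.24% and 3.67% against 3.85% and 4.06%. The groups overlapped for all 3 marks. At the gene ends H3K4me3 covered 16.8% and 19.2% against 21.2% and 21.4%, and EGR1 6.12% and 8.05% against 3.19% and 3.79%. These last marks were without overlap, H3K4me3 higher in inhibitory and EGR1 higher in excitatory libraries. Tet1 had the smallest p of the 7 genes for H3K4me1, with a normalized difference of -5.75 ± 2.38 percentage points (SE, 2 against 2 libraries, limma adjusted p = 0.200), and for H3K4me3, with -3.84 ± 2.08 (limma adjusted p = 0.408). Once peaks had to reach a -log10 p of 3, the H3K4me1 difference turned to 3.40.

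The start of Tet1 carried an H3K4me3 peak and an H3K27me3 peak together. H3K4me3 covered 33.6% and 38.3% of the start window in the excitatory libraries against 42.4% and 42.9% in the inhibitory ones, with a fold enrichment of 5.38, 6.09, 8.02 and 6.46 in the authors' lists. H3K27me3 covered 52.0% and 60.1% against 37.5% and 44.2%, higher than at 90.8% of all start sites, with enrichments of only 1.95 to 2.22. H3K27ac covered 0% and 7.27% in the excitatory against 43.1% and 25.1% in the inhibitory libraries. Both contrasts were without overlap and ran in opposite directions, H3K27me3 higher in excitatory and H3K27ac higher in inhibitory libraries. Neither passed the adjusted threshold. The H3K27ac difference was -28.1 ± 8.26 percentage points (limma adjusted p = 0.192) and the H3K27me3 difference 25.2 ± 9.92 (limma adjusted p = 0.203). The share of H3K27ac peaks with q below 0.05 was also higher in both inhibitory libraries (31.8% and 35.1% against 2.57% and 4.94%). The part of that in the Tet1 result was not tested.

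EGR1 at the Tet1 start sat inside the gene, with summits 883 to 1008 bases downstream of the start in the 4 libraries and enrichments of 5.29, 4.83, 4.36 and 3.71. Its coverage of the start window was 12.2% and 16.1% in the excitatory against 6.37% and 7.57% in the inhibitory libraries. Both excitatory libraries were above both inhibitory ones. The normalized difference was 2.77 ± 3.0 percentage points (limma adjusted p = 0.757). A pair of regions within the gene carried EGR1, H3K4me3 and H3K27ac in all 4 libraries of each. The first, chr10:62846952-62847896, had EGR1 enrichments of 6.33, 7.97, 6.33 and 5.17 and lies 39.4 kb from the start. The second, chr10:62865136-62866923, had enrichments of 6.30, 5.46, 4.99 and 5.99 and overlaps one edge of the long noncoding gene Gm51805. Both regions are at least as enriched for EGR1 as the start itself in every library. Gm51805 also spans the start of Tet1 and its whole window, so the window belongs to both genes.

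**Figure D2:**
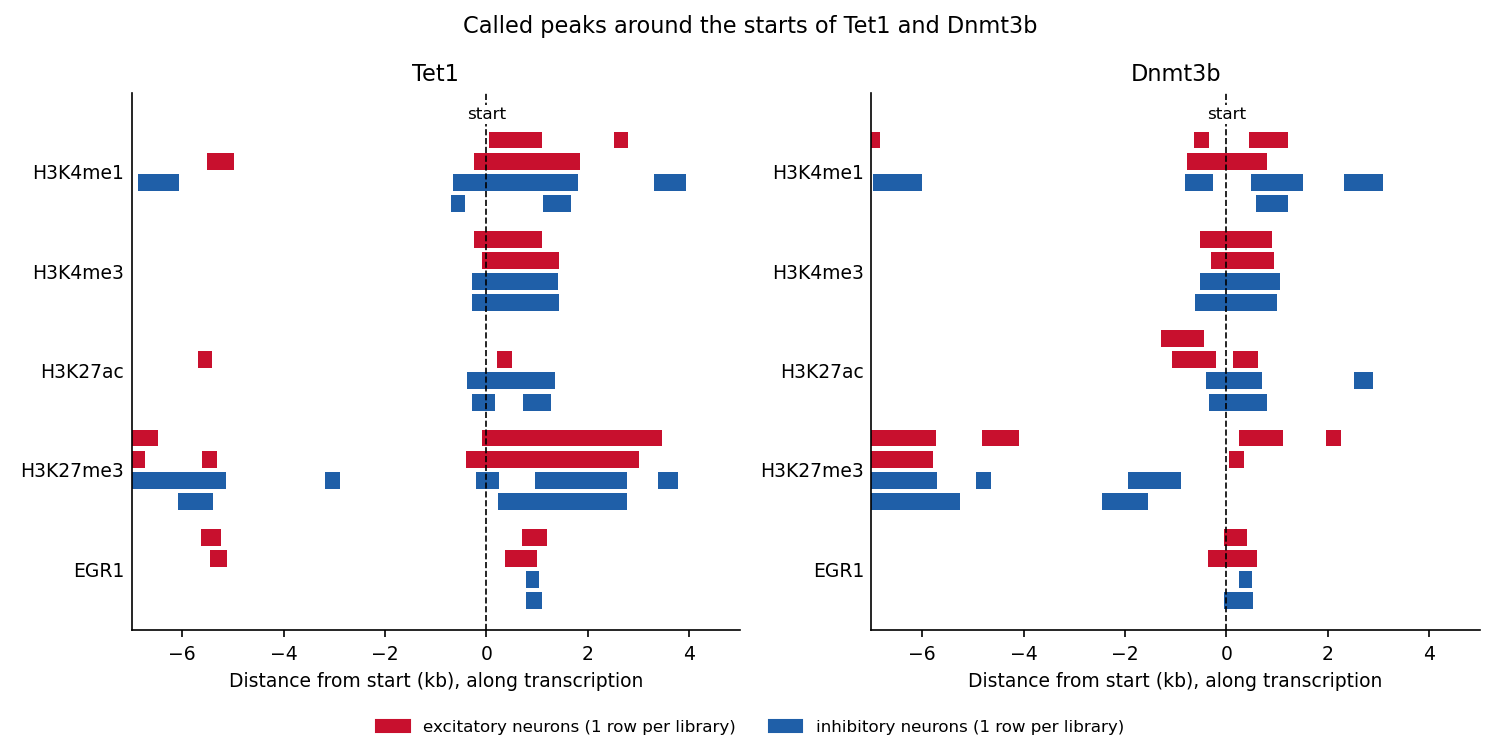
Called peaks around the start of Tet1 (left) and Dnmt3b (right), with the distance from the start along transcription in kb on the horizontal axis and 1 row per library, grouped by antibody, on the vertical axis. At Tet1 the H3K27me3 blocks of all 4 libraries run into the gene below the H3K4me3 peaks, while at Dnmt3b the H3K27me3 peaks within 2 kb lie downstream of the start in the excitatory libraries and upstream of it in the inhibitory ones. No H3K27me3 peak within 2 kb of these starts reached a -log10 p of 3.

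Dnmt3b, a de novo methyltransferase known for its role in the early embryo, shared the pairing of H3K4me3 and H3K27me3 within the start window, but the place of the H3K27me3 peaks differed between the libraries of the neuron types. The gene lies at chr2:153649411-153687730 (plus strand). These were the 2 of 9 enzyme start sites with both marks in all libraries, against 9.71% of all sites. H3K4me3 covered 35.4% and 31.4% of the Dnmt3b start window in the excitatory libraries against 39.6% and 40.5% in the inhibitory ones, without overlap, with a difference of -7.94 ± 4.08 percentage points (limma adjusted p = 0.354). H3K27me3 covered 22.7% and 7.37% against 25.7% and 11.5%, in weak peaks with a -log10 q of at most 0.0340, none of which reached a -log10 p of 3. In the excitatory libraries that mark lay mainly at chr2:153649497-153650574, just inside the gene and overlapping the H3K4me3 peaks. In the inhibitory libraries it lay at chr2:153647005-153648548, upstream of the start and of the H3K4me3 peaks. No H3K27me3 region in the gene and its 5 kb flanks was shared by all 4 libraries. H3K27ac covered 20.9% and 34.2% against 27.6% and 28.4%, and EGR1 11.5% and 24.2% against 6.0% and 14.3%, both with overlap.

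Over the Dnmt3b gene body H3K4me1 covered 4.46% and 7.66% against 7.39% and 1.90%, H3K27ac 3.01% and 6.01% against 3.83% and 2.35%, and H3K27me3 7.55% and 2.77% against 4.90% and 2.49%. The neuron types overlapped in all 3. At the gene ends H3K4me3 covered 17.7% and 15.7% against 19.8% and 20.2%, and EGR1 11.4% and 12.1% against 3.0% and 7.14%. EGR1 was thus higher without overlap in the excitatory libraries, with a difference of 4.31 ± 1.71 percentage points (limma adjusted p = 0.323). An EGR1 peak inside the gene at chr2:153679944-153680277 was called in both excitatory libraries (enrichments 4.85 and 5.23) and in neither inhibitory one. The inhibitory EGR1 lists held fewer peaks in all.

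The EGR1 recognition sequence, searched as GCGNGGGCG on both strands, stood in 3 of the 11 RefSeq promoter sequences of these genes (250 bases before to 50 after a listed start, all 7 genes matched). It was found in 5.55% of the 32851 promoter sequences in the table. The 3 promoters are shown because they let the motif be read against the EGR1 peaks. They are RefSeq sequences of GRCm38.p6, the assembly of mm10, written 5′ to 3′ on the gene's strand with the motif in capitals. Dnmt3b is at chr2:153649199-153649498 (plus strand), Tet1 at chr10:62887275-62887574 (minus strand), and the Dnmt3a start 3807160 at chr12:3806910-3807209 (plus strand).
Dnmt3b: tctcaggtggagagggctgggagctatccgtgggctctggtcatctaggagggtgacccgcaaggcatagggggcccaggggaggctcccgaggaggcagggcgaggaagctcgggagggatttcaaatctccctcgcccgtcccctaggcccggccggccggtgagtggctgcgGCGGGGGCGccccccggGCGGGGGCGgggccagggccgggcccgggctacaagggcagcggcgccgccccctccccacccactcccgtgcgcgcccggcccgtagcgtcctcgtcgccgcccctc
Tet1: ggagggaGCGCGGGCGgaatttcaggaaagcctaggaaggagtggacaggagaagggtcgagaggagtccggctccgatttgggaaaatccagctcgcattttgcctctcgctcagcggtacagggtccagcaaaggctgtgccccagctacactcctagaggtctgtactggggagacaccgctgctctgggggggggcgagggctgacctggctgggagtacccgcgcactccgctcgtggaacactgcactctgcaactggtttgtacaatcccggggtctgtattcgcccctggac
Dnmt3a: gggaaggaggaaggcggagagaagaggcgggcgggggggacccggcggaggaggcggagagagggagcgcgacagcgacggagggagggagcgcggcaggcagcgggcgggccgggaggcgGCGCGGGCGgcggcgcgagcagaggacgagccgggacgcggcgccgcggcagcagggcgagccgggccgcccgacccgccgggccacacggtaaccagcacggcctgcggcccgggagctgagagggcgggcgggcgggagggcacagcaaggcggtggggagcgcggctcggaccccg
With positions counted along transcription from the listed start, the motif in Dnmt3b begins at -75 and -58, which is inside the EGR1 peak of 1 excitatory library (153649081 to 153650047), while the other 3 peaks begin at or after position 153649400. In Tet1 the motif begins at -243, outside the EGR1 peaks there, which lie between 62886124 and 62886960. In Dnmt3a the motif begins at -129. The strongest EGR1 enrichment of the set, at Dnmt1, had no match in its listed promoters.

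Tet2 encodes a dioxygenase without a CXXC domain of its own and lies at chr3:133463677-133545136 (minus strand). Over the gene body H3K4me1 covered 19.3% and 24.4% against 17.8% and 19.1%, and H3K27ac 6.70% and 9.33% against 4.36% and 4.14%. H3K27me3 was 0% in both excitatory libraries against 11.1% and 7.62% in the inhibitory ones. Raw H3K4me1 and H3K27ac were higher without overlap in the excitatory libraries. For H3K4me1 the normalized difference was 1.06 ± 2.59 percentage points (limma adjusted p = 0.832). H3K27me3 met the filter on covered genes through the inhibitory libraries alone, so its groups could not have overlapped. Tet2 had the smallest p of the set for both H3K27ac (3.84 ± 1.51 percentage points, limma adjusted p = 0.271) and H3K27me3 (-7.27 ± 1.14, limma adjusted p = 0.0555). In the gene and its flanks 17 H3K27me3 regions were called, all in inhibitory libraries. Of these, 13 were in a single library and 4 in both, among the latter chr3:133468790-133471569 in the gene and chr3:133548845-133550667 upstream of it. The 4 shared regions had enrichments of 1.51 to 2.06, and no H3K27me3 peak at Tet2 reached a -log10 p of 3.

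The start of Tet2 had H3K4me3, H3K27ac and EGR1 in every library. H3K4me3 covered 54.6% and 64.0% against 54.7% and 59.8%, H3K27ac 49.0% and 19.1% against 48.9% and 39.7%, and EGR1 44.7% and 28.0% against 28.2% and 36.8%. H3K4me1 covered 19.6% and 20.7% against 25.2% and 27.9%, and H3K27me3 was 0% apart from 2.97% in 1 inhibitory library. H3K4me1 was higher without overlap in the inhibitory libraries, and the neuron types overlapped for H3K4me3, H3K27ac and EGR1. The EGR1 contrast was a difference of -1.44 ± 5.70 percentage points (limma adjusted p = 0.945). At the gene ends H3K4me3 covered 23.2% and 25.7% against 23.9% and 26.8%, and EGR1 22.3% and 14.0% against 14.1% and 18.4%. EGR1 enrichments at the start were 6.26, 5.19, 5.24 and 5.52. The promoter, chr3:133544341-133544640 (minus strand), is shown because it is the most CpG-rich of the set, with 57 CG dinucleotides in 300 bases, more than 99.8% of RefSeq promoters, where the median is 7. CG is in capitals.
Tet2: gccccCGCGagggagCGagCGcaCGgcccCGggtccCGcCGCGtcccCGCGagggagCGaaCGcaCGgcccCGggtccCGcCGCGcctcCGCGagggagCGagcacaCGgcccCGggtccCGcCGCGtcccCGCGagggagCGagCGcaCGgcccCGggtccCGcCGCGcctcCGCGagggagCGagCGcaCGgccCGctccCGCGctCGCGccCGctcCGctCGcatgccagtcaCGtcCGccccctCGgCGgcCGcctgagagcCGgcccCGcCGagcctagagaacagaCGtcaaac

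Tet3, the TET enzyme known to be abundant in neurons, carried the single difference that passed the threshold, in H3K4me3 at its start. The gene lies at chr6:83362373-83457208 (minus strand) and its listed start at position 83441678. H3K4me3 covered 39.3% and 41.0% of the start window in the excitatory libraries against 60.2% and 66.1% in the inhibitory ones. The inhibitory libraries were higher without overlap, by -23.3 ± 3.36 percentage points for excitatory minus inhibitory (SE, 2 against 2 libraries, limma adjusted p = 0.0121). It was 1 of 8 enzyme sites called, where 5.15% of all 12568 start sites tested were called and 1.93% were called in that direction. The call was lost without inhibitory replicate 1 (-24.8, limma adjusted p = 0.318), inhibitory replicate 2 (-21.4, adjusted p = 0.397) or excitatory replicate 2 (-22.7, adjusted p = 0.0620), and with no filter on covered genes (adjusted p = 0.183). The annotation puts the start of the long noncoding gene B230319C09Rik 77 bases away, so the window belongs to both genes.

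The difference at Tet3 was one of H3K4me3 breadth, while the peak heights of the neuron types overlapped. In the excitatory libraries a peak across the start ended 249 and 163 bases into the gene and the next began at 1165 and 1059 bases. In the inhibitory replicate 1 this gap ran only from 710 to 887 bases, and in replicate 2 a single peak ran from -645 to 3158 bases, counted from the start. The highest enrichment in the window was 2.95 and 3.09 in the excitatory libraries against 2.88 and 3.24 in the inhibitory ones, so it overlapped. H3K27ac moved in the same direction, with 25.0% and 27.8% against 41.2% and 40.0%, without overlap, but with a difference of -5.27 ± 7.07 percentage points after normalization (limma adjusted p = 0.814). EGR1 covered 50.0% and 61.0% against 38.3% and 56.2%, with overlap, and H3K4me1 24.7% and 18.7% against 21.6% and 34.8%. EGR1 was broad rather than high here: its enrichments of 3.60, 3.28, 3.10 and 3.56 were reached or passed by 71.9%, 75.7%, 91.2% and 74.9% of the peaks of each list. H3K27me3 was 0% in all 4 libraries.

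Some marker genes moved with this result. Summed H3K4me3 coverage at the starts of 6 inhibitory markers was 65.0 and 131 against 151 and 164, and for 3 astrocyte markers 31.9 and 36.2 against 48.2 and 45, of which Gfap was at 0 in both excitatory libraries and Aldh1l1 in both inhibitory ones. Both sums were lower in the excitatory libraries without overlap. Of the inhibitory markers, Gad2, Dlx2 and Lhx6 were lower there without overlap, while Gad1, Dlx1 and Slc32a1 overlapped. For 4 excitatory markers the sum was 71.6 and 135 against 132 and 137, and for 2 oligodendrocyte lineage markers 17.5 and 43.4 against 30.9 and 30.3, both with overlap. Of the excitatory markers, Neurod6 was higher in the excitatory libraries (35.0 and 39.0 against 8.02 and 0). Tbr1 was lower (0 and 24.5 against 64.6 and 70.0), and Slc17a7 and Slc17a6 overlapped. Both microglial markers were at 0 in every library. The part of other cells in the Tet3 result was not tested.

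**Figure D3:**
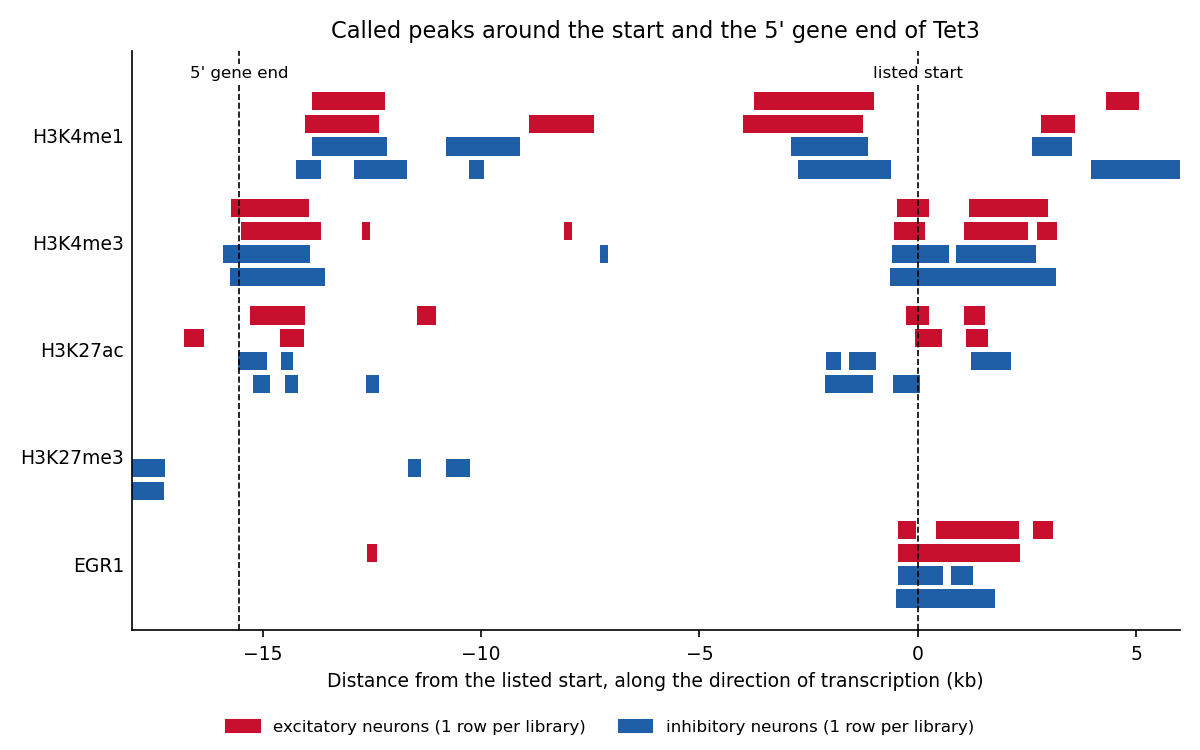
Called peaks around Tet3, with the distance from the listed start along transcription in kb on the horizontal axis and 1 row per library, grouped by antibody, on the vertical axis. H3K4me3 spreads from the start into the gene, with a wide gap in both excitatory libraries, a short one in the first inhibitory library and none in the other, and a separate H3K4me3 and H3K27ac block sits at the annotated 5′ gene end 15.5 kb upstream, which no EGR1 peak overlaps.

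Tet3 also carried marks of a start at its annotated 5′ end. The region chr6:83455261-83457583 had H3K4me3 in all 4 libraries, with enrichments of 4.06, 5.19, 5.38 and 5.63, each higher than at the listed start. H3K4me3 over the gene ends was 27% and 34.8% against 32.6% and 33.5%, and EGR1 0% and 3.37% against 0% and 0%. The groups overlapped in both. Over the gene body H3K4me1 covered 20.5% and 27.6% against 28.7% and 27.9%, H3K27ac 5.65% and 6.04% against 11% and 10.1%, and H3K27me3 0% and 0% against 3.14% and 1.5%. All 3 were higher without overlap in the inhibitory libraries and none passed (limma adjusted p = 0.344, 0.291 and 0.198). For H3K27me3, which entered through the inhibitory libraries alone, the filter had fixed this. EGR1 over the gene body ran the other way, with 6.18% and 7.05% against 2.46% and 3.55%. The promoter at the listed start, chr6:83441629-83441928 (minus strand), is shown with CG in capitals because the site had the widest EGR1 coverage of the set. It has 22 CG dinucleotides.
Tet3: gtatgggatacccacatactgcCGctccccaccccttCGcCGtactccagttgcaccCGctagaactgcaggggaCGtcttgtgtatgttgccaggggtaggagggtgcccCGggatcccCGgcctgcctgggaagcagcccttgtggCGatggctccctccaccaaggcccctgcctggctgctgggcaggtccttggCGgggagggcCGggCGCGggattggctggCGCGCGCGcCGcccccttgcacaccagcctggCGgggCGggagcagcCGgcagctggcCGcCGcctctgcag

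Dnmt1, the maintenance methyltransferase, had different marks called at its separate starts in both neuron types. The gene lies at chr9:20907206-20959888 (minus strand), and it is known to have an oocyte-specific promoter besides the one used in other cells. At the upstream start, position 20959888, H3K27me3 covered 18.3% and 12.5% of the window in the excitatory libraries against 62.4% and 34.3% in the inhibitory ones. These were weak peaks: the most enriched of each library had a -log10 q of 0.0192, 0, 0.00886 and 0.164. None reached a -log10 p of 3. H3K4me1, H3K4me3 and EGR1 were 0% in all 4 libraries there, and H3K27ac was 0% but for 3.20% in 1 excitatory library. H3K27me3 in all libraries with H3K4me3 in none was the state of 1 of 9 enzyme sites and of 4.70% of all sites. The H3K27me3 difference, inhibitory libraries higher without overlap, was -24.9 ± 13.5 percentage points (limma adjusted p = 0.330).

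At the downstream start site, whose first listed start is at position 20952979, the picture was the reverse. H3K4me3 covered 35.1% and 39.6% against 45.7% and 49.9%, H3K27ac 22.4% and 21.8% against 41.0% and 42.7%, and H3K4me1 29.7% and 38.9% against 18.8% and 26.1%. H3K27me3 was 0% in every library. These 3 marks were without overlap between the types, the first pair higher in inhibitory and H3K4me1 higher in excitatory libraries. For H3K4me3 the difference was -11.4 ± 3.43 percentage points (limma adjusted p = 0.113). The H3K27ac difference was -11.5 ± 7.19 (limma adjusted p = 0.535), and when peaks had to reach a -log10 p of 3 the H3K27ac level of excitatory replicate 2 was 0%.

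The EGR1 peak at the downstream start of Dnmt1 was the most enriched of the set in every library. Its enrichments were 10.5 and 10.9 in the excitatory libraries against 9.20 and 10.3 in the inhibitory ones. Only 1.03%, 0.429%, 1.64% and 1.23% of the peaks in the same lists reached as high. The summit was called at the same base, 20952767, in 3 libraries and at 20952757 in the excitatory replicate 1. Coverage of the window was 22.9% and 28.6% against 20.7% and 23.8%, with overlap and a difference of -0.677 ± 3.36 percentage points (limma adjusted p = 0.956). H3K4me3 enrichments there were 6.81 and 7.62 in the excitatory against 5.72 and 5.49 in the inhibitory libraries. They were reached or passed by 0.873% and 1.10% of the peaks in the excitatory lists and by 5.59% and 17.3% in the inhibitory ones. Each share is a rank within its own list, and the lists differ in their spread of enrichments. The shares are therefore not a contrast of the neuron types.

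**Figure D4:**
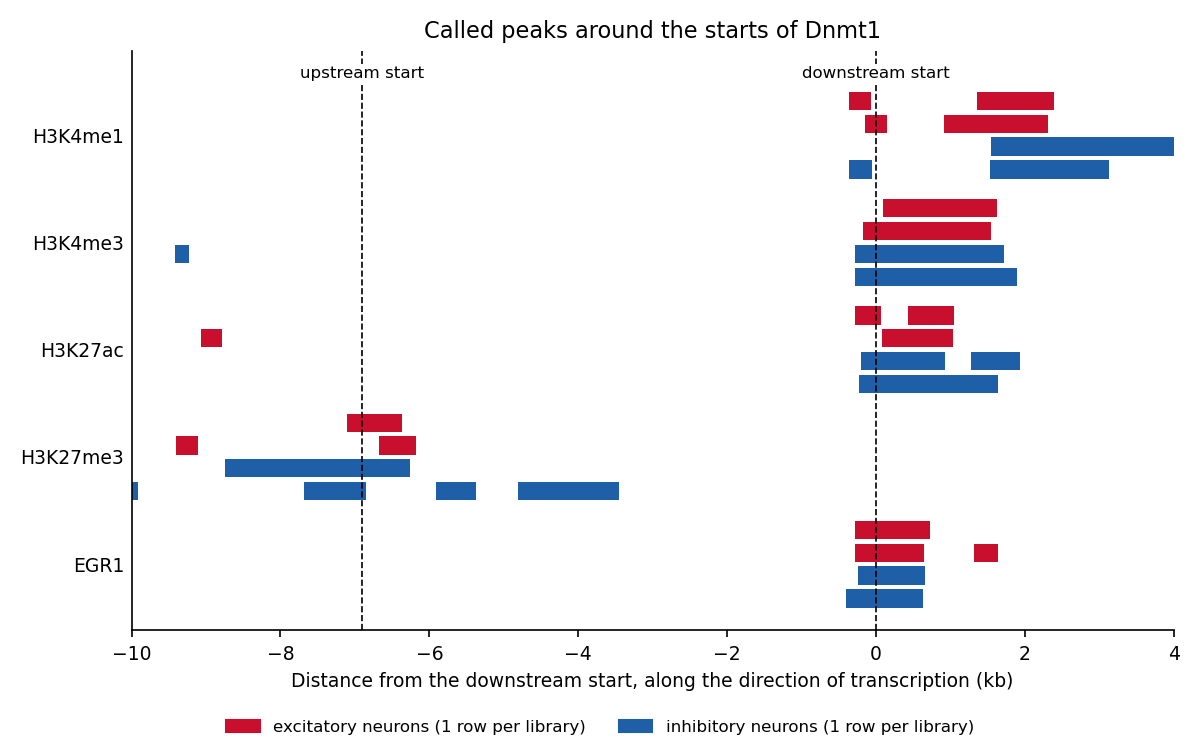
Called peaks around the starts of Dnmt1, with the distance from the downstream start along transcription in kb on the horizontal axis and 1 row per library, grouped by antibody, on the vertical axis. The H3K4me3, H3K27ac and EGR1 peaks of all 4 libraries stack at the downstream start, and H3K27me3 peaks of all 4 libraries lie at the upstream start 6.91 kb away and none at the downstream start. No H3K27me3 peak within 2 kb of the starts reached a -log10 p of 3.

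The promoters of Dnmt1 also differ in sequence. The upstream one, chr9:20959839-20960138, has 2 CG dinucleotides, and only 14.1% of RefSeq promoters have fewer. The most downstream one, chr9:20952574-20952873, has 33, more than 91.4% of promoters, and it holds the EGR1 summit 144 bases before its listed start. Both are shown on the minus strand with CG in capitals, as the pair with and without H3K27me3.
Dnmt1 upstream: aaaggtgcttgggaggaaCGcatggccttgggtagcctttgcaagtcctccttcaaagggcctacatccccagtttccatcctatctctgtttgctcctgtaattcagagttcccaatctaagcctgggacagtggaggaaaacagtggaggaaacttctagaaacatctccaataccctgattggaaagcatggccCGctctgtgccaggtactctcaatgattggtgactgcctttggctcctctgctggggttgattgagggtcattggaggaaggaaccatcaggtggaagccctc
Dnmt1 downstream: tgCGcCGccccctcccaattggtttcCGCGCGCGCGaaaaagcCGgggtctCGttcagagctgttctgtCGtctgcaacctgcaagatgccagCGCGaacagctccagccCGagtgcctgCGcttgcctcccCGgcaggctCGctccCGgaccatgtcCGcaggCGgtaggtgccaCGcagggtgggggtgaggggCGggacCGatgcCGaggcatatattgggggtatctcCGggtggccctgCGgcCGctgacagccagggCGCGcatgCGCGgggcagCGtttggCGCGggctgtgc
The start at position 20952979, from which distances were counted above, belongs to the same downstream start site. Its promoter has 12 CG dinucleotides, more than 60.4% of promoters. The window of that site spans this start and the one at position 20952623, whose promoter is the downstream one shown.

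Over the Dnmt1 gene body H3K4me1 averaged 9.95% ± 0.102 (SD, n = 2) in the excitatory against 9.54% and 6.22% in the inhibitory libraries. H3K27ac covered 6.58% and 4.80% against 5.34% and 5.07%, and H3K27me3 1.64% and 1.27% against 5.59% and 5.29%. H3K27me3 was higher without overlap in the inhibitory libraries. Raw H3K4me1 was higher in the excitatory ones, but its difference after quantile normalization had the opposite sign (-1.31 ± 1.82 percentage points). None of the 3 passed (limma adjusted p = 0.693, 0.964 and 0.428). An EGR1 peak toward the 3′ end of the gene, chr9:20909569-20910497, was called in both excitatory libraries (4.41 and 4.12) and in no inhibitory one, whose EGR1 lists held fewer peaks.

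Dnmt3a, the main de novo methyltransferase of postnatal neurons, has a first start at position 3806980 and an internal start at 3891744, 84.8 kb further on. The gene lies at chr12:3801559-3914443 (plus strand), and a short isoform from an internal promoter is known from embryonic stem cells. At the first start H3K4me3 covered 52.8% and 72.2% in the excitatory against 69.9% and 72.9% in the inhibitory libraries. EGR1 covered 18.8% and 29.5% against 18.0% and 31.2%, and H3K27ac 21.2% and 7.65% against 37.2% and 19.4%. The groups overlapped for all 3. H3K4me1 covered 15.4% and 9.06% against 28.8% and 11.5%. Dnmt3a had the smallest p for H3K4me1 at start sites (-11.0 ± 9.04 percentage points, limma adjusted p = 0.625), where 0% of all start sites passed, and that difference turned to 11.7 with equal numbers of strongest peaks. H3K27me3 was 0% but for 1.15% in 1 inhibitory library.

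The internal start of Dnmt3a carried weaker marks. H3K4me3 covered 0% and 18.9% against 13.2% and 17.6%, and H3K27ac 0% and 7.27% against 7.30% and 7.95%. EGR1 covered 16.4% and 14.3% against 8.50% and 16.8%, with overlap. A peak inside the gene at chr12:3892744-3893416 was called in both excitatory libraries (enrichments 3.49 and 3.18) and in inhibitory replicate 2 (2.60). A peak upstream of this start, at chr12:3889766-3890169, was called in both inhibitory libraries (2.42 and 2.87) and in neither excitatory one. The long noncoding gene Gm31623 spans this start. A stronger region nearby, chr12:3887473-3888219, had EGR1 in all 4 libraries with enrichments of 5.18, 4.69, 5.11 and 5.39, together with H3K4me3 and H3K27ac in all 4. Another of that kind lay inside the gene at chr12:3855505-3856705, with EGR1 enrichments of 5.30, 4.34, 3.71 and 4.93.

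Over the Dnmt3a gene body H3K4me1 covered 23.8% and 27.5% against 26.3% and 27%, with overlap. Dnmt3a and Tet3 had the widest H3K4me1 coverage of the set, and their values overlapped. H3K27ac covered 8.88% and 8.12% against 10.5% and 10.4%, and H3K27me3 0% and 0% against 0.615% and 0.802%. Both were higher without overlap in the inhibitory libraries, and neither passed (limma adjusted p = 0.868 and 0.884). For H3K27me3, which entered through the inhibitory libraries alone, the filter had fixed this. At the gene ends H3K4me3 was 0% in both excitatory libraries and averaged 2.27% ± 0.0353 (SD, n = 2) in the inhibitory ones, and EGR1 was 0% in every library, since the first start lies outside these windows.

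Tdg, the glycosylase that acts after the TET enzymes, had H3K4me3, H3K27ac and EGR1 called at its start in every library. It lies at chr10:82629814-82650799 (plus strand), and its 3′ end overlaps Glt8d2. At the start H3K4me3 covered 56.5% and 49.2% against 51.0% and 50.6%, H3K27ac 16.3% and 8.87% against 31.8% and 25.1%, and EGR1 10.5% and 15.5% against 15% and 19.8%. H3K27me3 was 0% in every library. H3K27ac was higher without overlap in the inhibitory libraries, and once peaks had to reach a -log10 p of 3 its coverage was 0% in both excitatory libraries. The EGR1 summits lay 72 to 141 bases downstream of the start, with enrichments of 6.16, 4.39, 6.87 and 7.44.

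Tdg had the smallest p of the set for EGR1 in both kinds of window. At the gene ends the levels were 5.25% and 7.77% against 7.49% and 9.92%, and the normalized difference was -4.86 ± 1.77 percentage points (limma adjusted p = 0.287). At the start the difference was -8.14 ± 3.22 (limma adjusted p = 0.379). Raw levels overlapped in both. Over the gene body H3K4me1 covered 16.8% and 20.1% against 12.7% and 9.99%, higher without overlap in the excitatory libraries, with a difference of 3.77 ± 2.27 (limma adjusted p = 0.347). EGR1 over the gene body ran against the result at the ends, with 3.31% and 5.70% against 1.93% and 2.56% and a difference of 0.741. H3K27ac covered 6.87% and 7.48% against 7.65% and 10.1% of the body, H3K4me3 28.3% and 24.6% against 25.5% and 25.3% of the gene ends, and H3K27me3 was 0% but for 1.70% of the body in 1 inhibitory library.

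**Figure D5:**
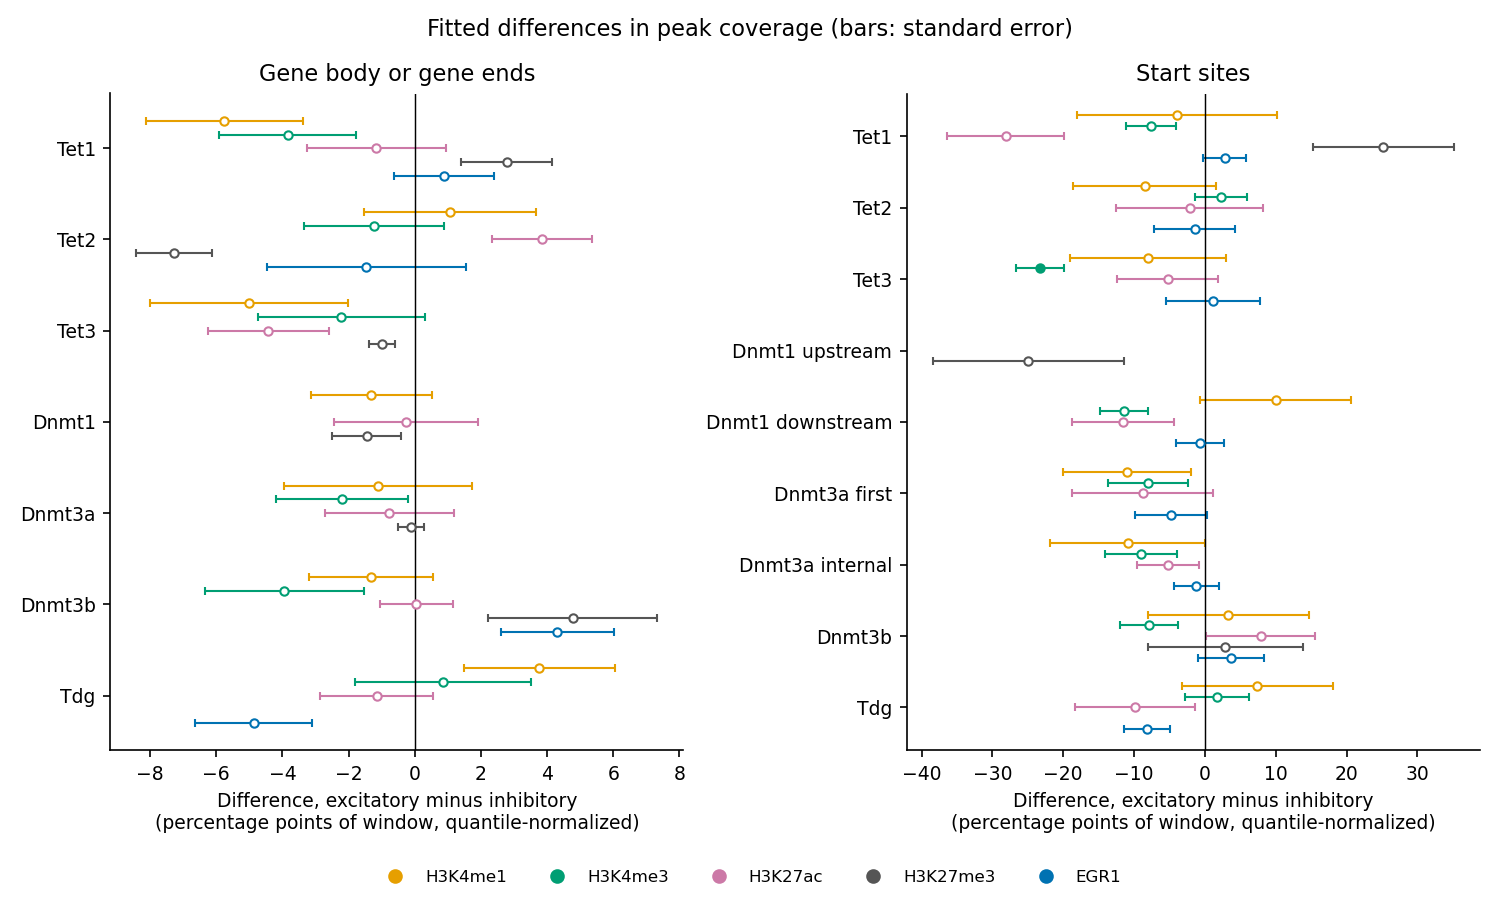
Fitted differences (excitatory minus inhibitory) in quantile-normalized peak coverage, as percentage points on the horizontal axis, for each gene (left, gene body for H3K4me1, H3K27ac and H3K27me3 and gene ends for H3K4me3 and EGR1) and each start site (right). Bars are standard errors of the limma fit, and the filled point, H3K4me3 at Tet3 with -23.3, is the single difference of 30 in the left and 35 in the right panel with an adjusted p below 0.05.

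Across the enzyme genes and 5 kb on each side, EGR1 formed 64 regions when the peaks of the 4 libraries were merged. Of these, 12 were in all 4 libraries (18.8%, against 18.2% of all 144675 EGR1 regions) and 14 in both excitatory and no inhibitory library (21.9%, against 21.0%). The reverse pattern was found in 4 (6.25%, against 2.41%). Of the regions in all 4 libraries, 7 of 12 lay within 2 kb of a listed start, against 35.6% of all such regions, 1 for each enzyme gene. The enzyme regions come from gene windows that each hold a start, while the shares of all regions also count those between genes. These shares are therefore not like for like, here and for the overlaps with the marks. All 12 overlapped an H3K4me3 region of all 4 libraries, against 61.1% of all such EGR1 regions, and 8 of 12 an H3K27ac region, against 52.3%. An H3K4me1 region of all 4 libraries was overlapped by 8 of 12, against 61.6%, and an H3K27me3 region by 1 of 12, against 12.1%. None of the 14 regions of the excitatory pair lay within 2 kb of a start, against 3.29% of such regions, and the nearest, chr10:62892441-62892955 upstream of Tet1, was 5.12 kb away. Tet3 held 4 of these 14 regions, Dnmt3a 5 and Dnmt3b 2, and Tet2 held none.

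The marks were split otherwise. H3K4me3 had 140 regions at the enzyme genes, with 19 in all 4 libraries (13.6%, against 6.07% of all regions), 15 in both inhibitory and no excitatory library (10.7%, against 3.30%) and 2 in the reverse class (1.43%, against 2.11%). Dnmt3a held 8 and Tet3 5 of the 15. H3K27me3 had 53 regions, 3 in all 4 libraries (5.66%, against 11.1%), 8 in both inhibitory libraries alone (15.1%, against 6.66%), 4 of them at Tet2, and 1 in the excitatory pair alone (1.89%, against 3.97%). H3K27ac had 187 regions, with 12 in all 4 libraries (6.42%, against 5.07%), 9 (4.81%, against 3.52%) in the inhibitory and 3 (1.60%, against 5.73%) in the excitatory pair alone. H3K4me1 had 151 regions, with 45 in all 4 libraries (29.8%, against 14.7%), 15 in the excitatory (9.93%, against 13.1%) and 11 in the inhibitory pair alone (7.28%, against 2.84%). The shares of all regions again count those between genes, while the enzyme regions lie in gene windows that each hold a start. Neighbouring regions of a gene are not independent, and these shares are descriptions.

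Other genes of the pathway were counted from a list of 35: partners of the methyltransferases, readers of methylated CpG, suppliers and regulators of TET, and base excision repair. In the windows of the enzymes' comparisons 0 of 35 passed for H3K4me1 and H3K4me3, 0 of 34 tested for H3K27ac, 0 of 22 for H3K27me3 and 0 of 33 for EGR1. The median differences of the list were -1.10, 0.268, -0.577, -1.67 and -1.43 percentage points in that order, beside -0.343, -0.123, -0.0829, 0.0498 and -0.428 over all genes tested. A single gene of the list passed in the other window. EGR1 covered 4.14% and 4.52% of the gene body of Dnmt3l, the inactive partner of DNMT3A and DNMT3B, in the excitatory libraries and 0% in both inhibitory ones, with a difference of 3.20 ± 0.352 percentage points (limma adjusted p = 0.0265), where 2.63% of all gene bodies passed. Dnmt3l met the filter on covered genes through the excitatory libraries alone, so its groups could not have overlapped. Over the gene bodies of the 7 enzymes themselves, EGR1 was higher without overlap in the excitatory libraries in 6 of 7, all but Tet2, where 63.3% of all gene bodies were, and 0 of 7 passed. After quantile normalization the difference was below 0 for Tet1 (-0.810 ± 0.569) and Tet2 (-1.43 ± 0.496) and above 0 for the other 5, the highest being Tet3 (1.79 ± 0.689, limma adjusted p = 0.186).

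The genes whose coverage of gene ends followed each enzyme most closely over the 20 libraries were named as a description. The 20 points share 5 antibodies, which differ in coverage, and r is given with no p. Tet1 was followed by Map3k20 (Pearson r = 0.907) and Nxph1 (0.865), Tet2 by Zbtb44 (0.967) and Tnrc6c (0.963), and Tet3 by Kcnj9 (0.958) and Marchf9 (0.956). Dnmt1, with H3K27me3 nearly alone in its gene-end windows, was followed by E330021D16Rik (0.992) and Cyp3a13 (0.989). Dnmt3a was followed by Ubap1l (0.859) and Pth2r (0.850), Dnmt3b by Lig3 (0.886) and Rap1gds1 (0.883), and Tdg by Mob2 (0.971) and G2e3 (0.970). Lig3, a ligase of base excision repair, also belongs to the pathway list.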

How the data were processed

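The authors deposited 1 list of peaks per library, and nothing in it gives counts of reads, so no counting interval is given. Tools named in the submitters' processing notes, with the build mm10 and without roles, are MACS2 2.2.5, Bowtie2 2.3.5, SAMtools 1.12, Picard 2.25.0, cutadapt 1.18 and Trim Galore 0.5.0. Each deposited peak has a display score, a fold enrichment (a ratio), a -log10 p and a -log10 q. These served to filter peaks, or to describe and rank them inside their own list. Per the labels, groups are antibody by neuron type with 2 libraries each. Peak names in the EGR1 lists carry other replicate numbers than the labels, and the labels were followed.

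The percent of each window covered by peaks was computed for 21627 protein-coding genes (RefSeq, GRCm38.p6) with Python 3.11.15, pandas 2.3.3 and numpy 2.4.6. Windows were the gene body extended by 5 kb (H3K4me1, H3K27ac, H3K27me3) and the 2 gene ends extended by 2 kb to either side (H3K4me3, EGR1). A gene entered when 2 or more libraries had a covered base. Coverage was quantile-normalized and modelled by limma 3.58.1 (R 4.3.3) with a mean-variance trend and no block. Tests were two-sided, with Benjamini-Hochberg adjustment and a threshold of 0.05, and the fit was tested on simulated data. The simulated noise was set below the spread between the excitatory replicates, and the planted differences were large. That test does not show how often small differences would be found here. Listed starts less than 4 kb apart formed 1 start site, and those windows were added after the files had been seen. An exact test of 2 against 2 libraries cannot go below p = 0.333.

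The members and lists were chosen with earlier results of these data known. All 7 enzymes were named for every antibody, with a difference for each member past the threshold or else the one with the smallest p. Further differences printed were chosen after their values were seen. Of the marker lists (6 excitatory, 6 inhibitory, 4 astrocyte, 4 oligodendrocyte lineage, 4 microglial genes), those with a listed start were summed at starts. Alternatives were a peak threshold of -log10 p of 3, equal peak numbers, no normalization, the other window, no filter, an overlap of 200 bases, the replicate block and leaving out each library.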

Additional observations from a re-analysis of the deposited data

How the results depend on the processing

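No enzyme gene was called in the gene windows under any alternative run. Among the enzymes' differences, 81 of 89 values under alternatives kept direction and side of the threshold, 4 changed sign and 4 lost a call. Those that changed sign were Tet1 H3K4me1 with the stricter peaks (3.40), Tet2 H3K27ac (-3.46) and Tdg EGR1 (0.741) in the other window, and Dnmt3a H3K4me1 at its start with equal peak numbers (11.7). H3K4me3 at the Tet3 start was not called with no filter (-23.3, limma adjusted p = 0.183), and with 1 library left out its difference ran from -24.8 to -21.4, the call being lost in 3 of 4 such fits; members called fell from 1 to 0 with no filter and ran from 0 to 1 with a library left out. Counts of all genes called depended strongly on the setting, and the cause was not tested. For H3K4me1 gene bodies the count of 732 became 0 with stricter peaks, 0 with equal peak numbers, 1212 with no normalization, 219 in the other window and 20 with no filter, and it was 0 to 0 with a library left out. For H3K4me3 gene ends the count of 474 became 0 with no normalization, 111 in the other window and 0 with no filter, and it was 0 to 0 with a library left out. H3K27ac gene bodies went from 0 to 16 with no filter and ran from 0 to 1287 with a library left out, and EGR1 gene ends went from 0 to 432 in the other window and 53 with no filter. At start sites the 647 calls for H3K4me3 became 281 with no normalization and 0 with no filter, running from 0 to 1012 with a library left out. EGR1 starts went from 0 to 29 with no filter. With a library left out, starts ran from 0 to 7 for H3K4me1, 0 to 333 for H3K27ac and 0 to 13 for H3K27me3. The replicate block gave 0 (H3K4me1), 1232 (H3K4me3) and 1329 (H3K27ac) called genes in the gene windows. At start sites it gave 320 (H3K4me1), 1346 (H3K4me3) and 132 (H3K27me3). Over genes, the difference between the excitatory replicates correlated with that between the inhibitory replicates at -0.017 to 0.0595, depending on the antibody. The replicate numbers were therefore not taken to pair the samples. With stricter peaks 34 of 80 enzyme levels moved beyond the spread between replicates, and sequencing depth is unknown.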
